A study of Mus musculus with 8 samples.

Results

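The genes described here are unprocessed pseudogenes with reads in R1 mouse embryonic stem cells: rows of the count table that the GENCODE M21 annotation classes as unprocessed pseudogenes and that held at least 80 reads summed over the 8 libraries. A stretch of 3 Mb near the end of chromosome 4 and one of 1 Mb on chromosome 12 were left out. That rule gave 81 members among 688 unprocessed pseudogenes and 36920 rows in all. Of the remainder, 599 had fewer than 80 reads, 44 of them none at all, and 8 lay in the left-out regions. The rule used the summed reads and no comparison between groups.

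An unprocessed pseudogene is a copy made by duplication of genomic DNA, so it can keep the introns and sometimes the promoter of its parent, but its reading frame has been disabled. A processed pseudogene, in contrast, is a reverse-transcribed copy of an mRNA and has no introns. Many unprocessed copies sit inside clusters of the family they came from, and families that grew by recent tandem duplication, such as those switched on in the early cleavage embryo, leave many of them. Because copies resemble their relatives closely, short reads of one can be assigned to the other.

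R1 cells were grown in serum with LIF in all 4 groups, which were sampled at D1, D3, D8 and D10 with 2 libraries each. D1 and D8 were labelled control, and D3 and D10 were labelled ML-792, an inhibitor of the SUMO-activating E1 enzyme given for 48 h before each of those days at a dose labelled 2.5 mM. The labels describe both as rounds of 1 schedule, so the D8 cells follow the first exposure. Only 1 cell line was used. Whether replicate libraries were grown apart is not stated, and the p-values therefore reflect just the spread among these libraries, which may be technical. The time tag of D1 replicate 2 gives day 0 while its title gives D1.

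Library totals ranged from 21040992 to 40835518 reads, of which 0.0128% to 0.0993% fell in the 81 members. Pou5f1, Sox2 and Nanog, core pluripotency factors, were read in every library, with 757.7, 297.6 and 193.8 CPM (counts scaled to library size with TMM factors) as their lowest values. Uba2 and Sae1, the subunits of the E1 enzyme that ML-792 targets, did not pass the test in any comparison (log2 fold changes from -0.23 to 0.18). All 8 markers of 2-cell-like cells, a rare state of embryonic stem cell cultures that transcribes genes of the cleavage embryo, rose in both exposures, among them Zscan4c and Zscan4d, whose family some members copy. The summed level of the 8 was 41.1 and 78.9 CPM in the D1 libraries, 716 to 2312 CPM at D3, 5.92 and 11.8 CPM at D8, and 506 and 520 CPM at D10. Markers of fibroblast feeders summed to 5.92 to 19.7 CPM and those of trophoblast to 26.2 to 251.8 CPM. Only 4 of 8 feeder markers and 4 of 5 trophoblast markers were tested, and 1 passed, a feeder marker that fell at D10. Of 6 primitive endoderm markers 5 were higher at D8 than at D1, 2 (Gata6 and Pdgfra) rose at D3 and 1 (Dab2) fell at D10. Of 10 embryonic stem cell markers 2 fell at D3 and 7 at D10. No marker was at 0 reads over the 8 libraries. In bulk RNA, more cells of a type and more RNA per cell cannot be told apart, and the part of these marker changes in the results below was not tested.

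The parent families were found by aligning each member's transcript to the protein-coding transcripts of other genes. A coding relative was found for 80 of the 81 members, all but Gm7284, and identity over the alignment ranged from 68.96% to 99.87% with a median of 94.47%. At least 95% identity was reached by 37 members and at least 99% by 10. Identity counts aligned bases only: the alignment covered at least 95% of the member for 62 members, but 38.3% of Obox4-ps33 and 50.1% of Gm18227. The relatives were 65 distinct genes, and for 27 members the closest gene of any kind was another pseudogene. Of the 25 members with a single annotated exon, 6 (Gm15950, Gm43712, Gm48147, Gm6532, Mrip-ps and Vdac3-ps1) aligned across at least 2 joined exons of the relative, a structure more usual for a processed copy. The other 19 aligned within 1 exon of theirs. Some members of several exons also aligned across more exons of the relative than they have. Gm7729 and Gm15753, with 2 exons each, aligned across 8, and Gm15697 and Gm13217, with 4 each, aligned across 10 and 7. Chromosome 12 carried 16 members and chromosome 7 carried 8, and 25 members lay within 250 kb of another member.

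Stretches of 120 bases inside the coding sequence of the relative show how near the copies are, with the bases that differ between the partners of a pair in capitals. All are transcript sequences of GENCODE M21 on mm10 (GRCm38), 5′ to 3′, chosen so that their share of differing bases is close to that of the whole alignment. The first 3 pairs were chosen because both partners rose in both exposures. Zscan4a (chr7:10794242-10799057, minus strand) is 97.85% identical to its relative Zscan4-ps2 (chr7:11514310-11519111, plus strand), which the annotation lists as protein coding despite its name.
Zscan4a: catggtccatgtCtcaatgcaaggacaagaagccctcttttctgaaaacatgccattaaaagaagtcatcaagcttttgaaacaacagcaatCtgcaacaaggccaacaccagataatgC
Zscan4-ps2: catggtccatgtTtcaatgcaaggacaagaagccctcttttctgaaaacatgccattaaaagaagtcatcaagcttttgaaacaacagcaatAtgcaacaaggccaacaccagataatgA
Gm8607 (chr12:88139363-88139793, minus strand) and Gm2075 (chr12:88011848-88012282, plus strand), single-exon genes related to the translation initiation factor eIF1A, are 98.38% identical.
Gm8607: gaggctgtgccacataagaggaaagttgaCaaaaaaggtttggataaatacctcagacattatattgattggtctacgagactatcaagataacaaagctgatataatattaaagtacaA
Gm2075: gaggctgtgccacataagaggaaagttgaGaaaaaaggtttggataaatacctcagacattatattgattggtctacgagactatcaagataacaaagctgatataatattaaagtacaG
Gm5541 (chr3:93628640-93629752, minus strand) and Tdpoz4 (chr3:93796398-93797510, plus strand), a gene with TRAF and POZ domains, are 97.31% identical.
Gm5541: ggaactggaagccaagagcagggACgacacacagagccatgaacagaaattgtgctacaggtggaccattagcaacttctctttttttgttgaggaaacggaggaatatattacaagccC
Tdpoz4: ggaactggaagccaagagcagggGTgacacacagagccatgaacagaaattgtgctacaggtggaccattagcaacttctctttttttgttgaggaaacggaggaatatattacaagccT
The next pair is shown because the member rose and its relative did not pass the test. Gm6909 (chr7:11182400-11188803, plus strand) lies between the Zscan4 genes and is 96.06% identical to Aurkc (chr7:6995300-7003091, plus strand), which encodes a meiotic aurora kinase.
Gm6909: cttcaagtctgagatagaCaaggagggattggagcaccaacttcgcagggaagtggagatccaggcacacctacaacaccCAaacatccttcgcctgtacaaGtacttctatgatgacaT
Aurkc: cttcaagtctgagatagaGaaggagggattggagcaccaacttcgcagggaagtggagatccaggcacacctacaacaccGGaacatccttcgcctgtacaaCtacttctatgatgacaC
The last pair is shown because nearly all of its bases agree while all the reads were given to the pseudogene. Gm28438 (chr1:24612775-24613119, minus strand) is a nuclear copy of mt-Nd3 (chrM:9459-9806, plus strand), a mitochondrial subunit of respiratory complex I, and is 99.71% identical to it.
Gm28438: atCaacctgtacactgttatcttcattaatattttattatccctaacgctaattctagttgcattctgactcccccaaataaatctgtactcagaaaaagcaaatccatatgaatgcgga
mt-Nd3: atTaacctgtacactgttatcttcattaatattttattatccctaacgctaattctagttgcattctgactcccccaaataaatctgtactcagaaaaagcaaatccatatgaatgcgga
Over the 120 bases printed, 3 differ between Zscan4a and Zscan4-ps2, 2 between Gm8607 and Gm2075, 3 between Gm5541 and Tdpoz4, 5 between Gm6909 and Aurkc, and 1 between Gm28438 and mt-Nd3. How the counting treated reads that match several places is not given in the sources used here, so the split of reads within such a pair is uncertain. The exons of 5 members (H2-T-ps, 5830417I10Rik, Hist1h2aj, Gm11336 and Gm18562) also overlap a gene on the opposite strand, and whether the counting used strand is not stated.

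The 81 members held 82653 reads in all, and Zscan4a alone held 25466 of them (30.8%). Most members were scarce: the median was 265 reads over the 8 libraries, 37 members had under 200, and 16 had 1000 or more. The 3 members just inside the read minimum were Gm9131 with 82, Gm49376 with 83 and Gm2808 with 85 reads. The 3 pseudogenes just outside it were Gm11771 with 79, Gm9121 with 77 and Gm6579 with 76. All 81 members passed the count filter of the test. However, 27 of them had under 40 reads in the 4 control libraries together and thus reached 80 through the ML-792 libraries, against 2 with under 40 reads in the 4 ML-792 libraries. Those 27 had to lie higher after ML-792, and counts and medians over all 81 members, or over a family that holds any of the 27, are no support for a rise. They include Gm17737, Gm6909, Gm48388, Obox4-ps33, H2-T-ps, Gm11331, Gm6522 and Gm12591, which are described below. Gm14415, Gm15753, Gm2808, Gm11545, Cyp4a30-ps, Gm9043 and Gm17204, also described below, are among them. So are all members related to Tdpoz, Prame-like and Speer genes.

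**Figure D1:**
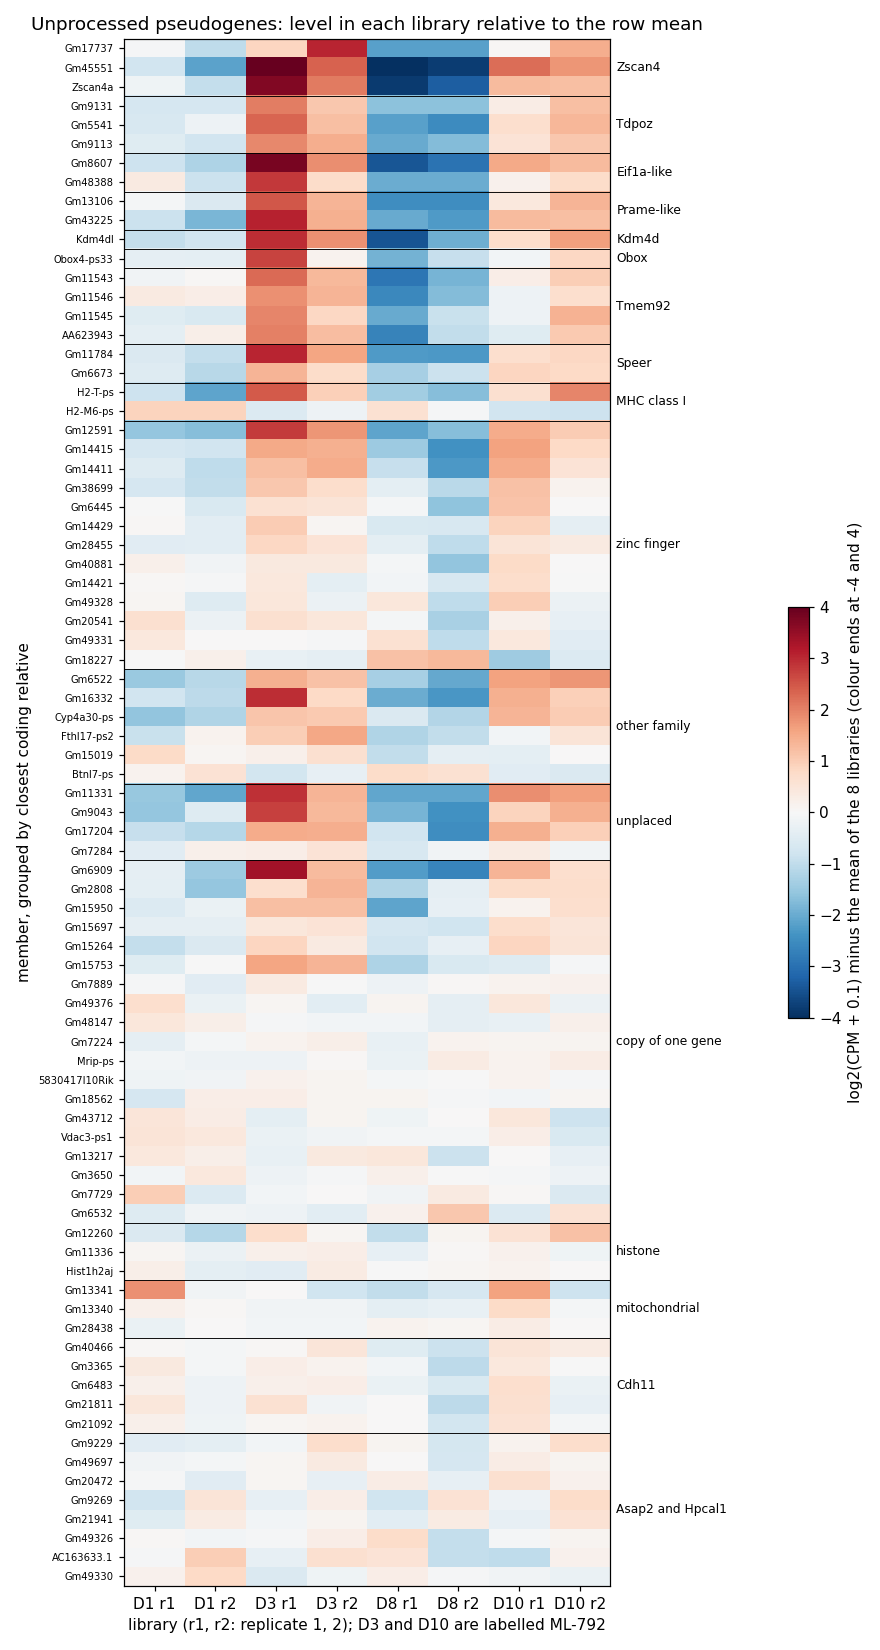
Each row is 1 of the 81 members and each column 1 library, and colour gives log2(CPM + 0.1) minus the mean of the 8 libraries. Rows are grouped by family, mostly that of the closest coding relative, though some rows in the Asap2 and Hpcal1 group have another closest coding relative. The Zscan4, Tdpoz, eIF1A-like, Prame-like, Kdm4d, Tmem92 and Speer rows are redder in the D3 and D10 libraries than in the D1 and D8 libraries. Most rows grouped with Cdh11, Asap2 and Hpcal1 are pale.

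The D3 libraries were compared with the D1 libraries to ask how the members stood after the first exposure. Of the 81 members 27 rose and 1 fell (edgeR's quasi-likelihood test, Benjamini-Hochberg adjusted p under 0.05 over 19173 genes). Over all genes tested, 7.92% were called higher and 5.1% lower, or 13.0% in either direction. The median log2 fold change was 0.85 over the members and 0.00 over all genes tested. Among the 54 members with at least 40 control reads, 8 rose and 1 fell, and their median was 0.18. Among the largest rises were those of Gm11331, Gm12591, Gm45551, H2-T-ps, Gm8607, Gm43225, Gm6909, Zscan4a and Gm11784, and the fall was that of H2-M6-ps. No call was independent of every library: leaving out D1 replicate 1 left 7 calls and leaving out D1 replicate 2 left 0, while there were 10 when D3 replicate 1 was dropped and 21 when D3 replicate 2 was. Without D1 replicate 2 31 members had an unadjusted p under 0.05, the lowest adjusted p was 0.0505 for Zscan4a, and 387 of 20247 genes (1.91%) were called. The direction of all 28 called members was the same in each of the 8 fits that left out 1 library.

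The D10 libraries were compared with the D8 libraries for the second exposure, which shares no library with the first comparison. Here 31 members rose and 3 fell, against 9.27% of all genes called higher and 7.65% lower, or 16.9% in either direction. The median log2 fold change was 1.11 over the members and 0.03 over all genes, and leaving the 4 members with 0 reads at D8 at their lower bound did not move it. Among the 54 members with at least 40 control reads, 11 rose and 3 fell, with a median of 0.52. The largest fitted rises were those of Gm11331, Gm13106, Gm17737, Gm9131, Gm45551, Gm6909, Gm8607, Gm12591, Gm6522 and Zscan4a, and the falls were those of Gm18227, Btnl7-ps and H2-M6-ps. The first 4 had 0 reads at D8, so their fitted rises depend on the prior count, and their lower bounds of 4.73, 4.49, 4.13 and 3.34 on the log2 scale lie below the fitted 6.74 of Gm45551. When single libraries were left out, 23 to 31 members were called, and 16 of the 34 were called in all 8 such fits.

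Of the 27 that rose at D3, 25 (92.6%) also rose at D10, which is 80.6% of the 31 that rose there. Over all genes the 1182 called higher in both were 77.9% of the first rises and 66.5% of the second. Of the members that rose, 19 at D3 and 20 at D10 had under 40 control reads, so the read minimum favoured their rise. The overlap of the members is therefore no support for agreement between the exposures. H2-M6-ps was the member that fell in both. Among the 54 members with at least 40 control reads, all 8 that rose at D3 rose at D10 too. No member was called in opposite directions. Gm15753 and Gm2808 were called higher in the first exposure alone, and Gm11545, Gm11546, Gm15697, Gm17737, Gm40466 and Gm48388 in the second alone. The log2 fold changes had the same sign for 72 members (88.9%) and for 78.2% of all genes tested. Those 72 include the 27 members with under 40 control reads, all positive in both exposures, as the read minimum favours. The share over all 81 members is therefore no support for agreement between the exposures. The test of the difference between the responses called 0 members by edgeR, with 6 at an unadjusted p under 0.05, and 0 by DESeq2, against 0.0% of all genes in edgeR. A call in 1 exposure alone therefore does not show that the responses differed.

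**Figure D2:**
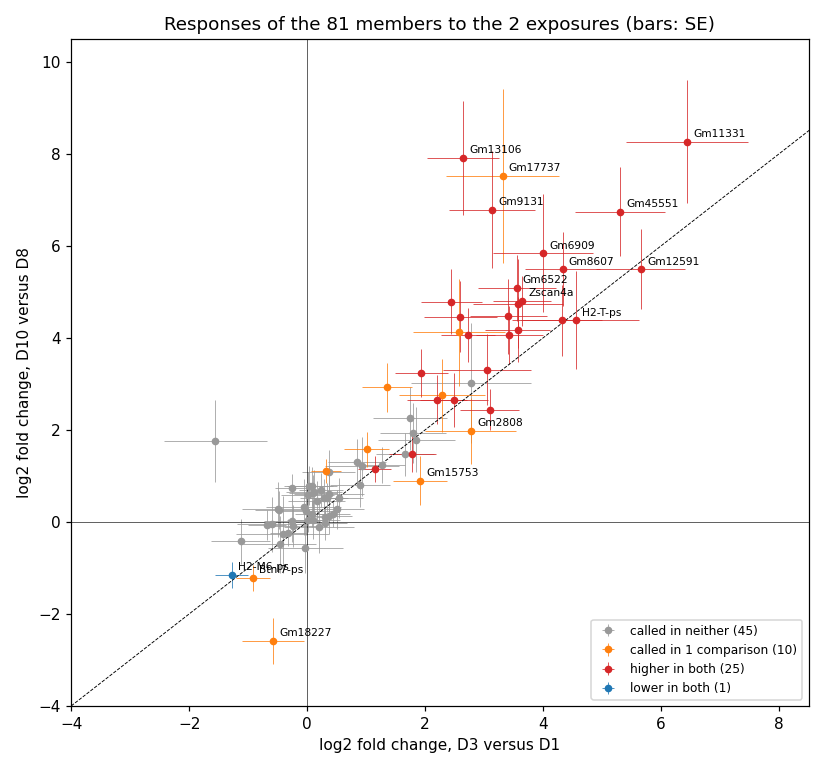
Points are the 81 members, placed by their log2 fold change at D3 versus D1 (horizontal axis) and at D10 versus D8 (vertical axis), with standard errors as bars and a dashed line of equal change. The 25 members called higher in both exposures run from about 1 to above 6 on both axes, and H2-M6-ps and Gm18227 lie below 0.

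Between the exposures, D8 was compared with D1, which shares D1 with the first comparison and D8 with the second. No member passed the test in edgeR (over all genes 0.141% were called higher and 0.0365% lower, or 0.177% in either direction), 19 had an unadjusted p under 0.05, and DESeq2 called 6, all lower at D8 (Zscan4a, Gm11543, Gm11546, Gm8607, Gm13106 and Kdm4dl). The median log2 fold change was -0.55 over the members and 0.00 over all genes. Zscan4a stood at 35.7 and 20.7 CPM in the D1 libraries and at 2.78 and 4.02 CPM at D8, without overlap. Its log2 fold change was -3.04 ± 0.52 (SE) with an edgeR adjusted p of 0.0809.

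Members related to Zscan4, a family of SCAN-domain zinc finger proteins of the 2-cell embryo, were 3: Zscan4a, Gm45551 and Gm17737, all on chromosome 7, where that family is clustered. Zscan4a had 747 and 665 reads (D1), 12558 and 4972 (D3), 85 and 125 (D8), and 2428 and 3886 (D10). Both D3 libraries exceeded both D1 libraries, both D10 libraries exceeded both D8 libraries, and D3 replicate 1 was the highest by far. The log2 fold changes were 3.64 ± 0.50 at D3 (adjusted p = 0.00419) and 4.81 ± 0.54 at D10 (adjusted p = 0.00167), beside 4.79 and 5.90 for Zscan4-ps2.

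Gm45551 (chr7:11478208-11479567) had 2.01 and 0.714 CPM (D1), 84.6 and 18.2 (D3), 0.0981 and 0.161 (D8), and 16.7 and 12.1 (D10). The groups did not overlap in either exposure, and the changes were 5.30 ± 0.77 and 6.74 ± 0.97 on the log2 scale. Its relative is Zscan4f, which rose by 4.83 and 6.09. They are 97.33% identical over 450 aligned bases, and 48.5% of Gm45551 was covered. Gm17737 (chr7:11979676-11983912) had 7 and 4 reads (D1), 17 and 103 (D3), 0 and 0 (D8), and 9 and 48 (D10). It differed from the others of the cluster in that D3 replicate 2, not replicate 1, was the higher, and it passed the test at D10 (adjusted p = 0.0329) but not at D3 (adjusted p = 0.0605). Against the floor of 3 reads over the D8 group, it was at least 17.5-fold higher at D10.

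Gm6909, the copy of Aurkc printed above, also lies in this cluster, between Zscan4d and Zscan4e, both of which rose in both exposures. It had 8 and 4 reads (D1), 150 and 40 (D3), 1 and 0 (D8), and 37 and 37 (D10). Every ML-792 library was above every control library. The log2 fold change was 4.0 ± 0.85 at D3 (adjusted p = 0.0185) and the ratio at D10 to D8 was 68.3 (95% counting interval 11.9 to 2735, from 1 read at D8). Aurkc itself stood at 5.69 and 4.91 CPM (D1), 2.65 and 3.41 CPM (D3), 1.67 and 4.67 CPM (D8), and 0.973 and 3.30 CPM (D10), and its log2 fold changes were -0.80 (adjusted p = 0.412) and -0.53 (adjusted p = 0.576). The D3 libraries of Aurkc were below those of D1, and its D8 and D10 libraries overlapped.

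The Tdpoz-related members, Gm5541, Gm9113 and Gm9131, lie on chromosome 3, and all 3 rose in both exposures. All 3 had under 40 control reads, so that they were higher after ML-792 was set by the read minimum. Gm5541 had 8 and 18 reads (D1), 87 and 47 (D3), 2 and 1 (D8), and 27 and 75 (D10), so the control and ML-792 libraries did not overlap. Its log2 fold change was 2.45 ± 0.51 at D3 (adjusted p = 0.0175), and D10 exceeded D8 by a ratio of 31.4 (counting interval 10.4 to 154.8). Tdpoz4 changed by 3.10 and 3.62 on the same scale. Gm9113 changed by 2.72 ± 0.46 at D3, and Gm9131, which had 0 reads in both D8 libraries, was at least 10.2-fold higher at D10. The closest coding relative of both is Gm5286, which rose by 2.18 and 3.47.

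Of the eIF1A-like pair on chromosome 12, Gm8607 had 0.909 and 0.652 CPM (D1), 24.8 and 6.37 (D3), 0.0654 and 0.129 (D8), and 4.94 and 4.21 (D10). It rose by 4.33 ± 0.63 (adjusted p = 0.00486) and 5.49 ± 0.80 (adjusted p = 0.00373), with no overlap between groups. Its relative Gm2075 rose by 3.55 and 3.73 and stood at a lower level per length, 4.22 against 12.2 CPM per kilobase over the 8 libraries. Gm48388 (chr12:87980012-87980224) is 99.53% identical to BB287469 over its 213 bases. It was called at D10 (adjusted p = 0.0424) and not at D3 (2.57 ± 0.78, adjusted p = 0.0639), while BB287469 rose in both.

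Prame-like genes form large clusters expressed in germ cells and early embryos. Both members of that kind rose in both exposures, and both reached the read minimum through the ML-792 libraries, so the count is no support for a rise. Gm43225 (chr5:93694994-93697721) had 7 and 4 reads (D1), 158 and 59 (D3), 3 and 2 (D8), and 45 and 73 (D10). Its changes were 4.31 ± 0.68 and 4.38 ± 0.78, whereas its coding relative Gm6502, 97.09% identical, had 30 reads over the 8 libraries and was not tested. Gm13106 (chr4:143928534-143930736) had 9 and 9 reads (D1), 72 and 39 (D3), 0 and 0 (D8), and 16 and 57 (D10). It was at least 22.5-fold higher at D10 than at D8, and its relative Pramef25 rose by 3.42 and 4.71.

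Kdm4dl (chr9:14450836-14452022), a single-exon copy of the histone H3 lysine 9 demethylase gene Kdm4d, lies 10526 bases from it. It had 29 and 52 reads (D1), 535 and 290 (D3), 5 and 20 (D8), and 115 and 377 (D10). Every ML-792 library exceeded every control library, and the changes were 3.43 ± 0.56 (adjusted p = 0.00727) and 4.07 ± 0.63 (adjusted p = 0.00477). Kdm4d held 129 reads in all and its changes were 0.92 (adjusted p = 0.174) and 1.79 (adjusted p = 0.0213), so the copy stood above its parent per length, at 5.27 against 0.19 CPM per kilobase. Obox4-ps33, which resembles an oocyte homeobox gene, did not pass the test (2.77 ± 1.01 and 3.02 ± 1.31), with 56 of its reads in D3 replicate 1 and 9 in D3 replicate 2.

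**Figure D3:**
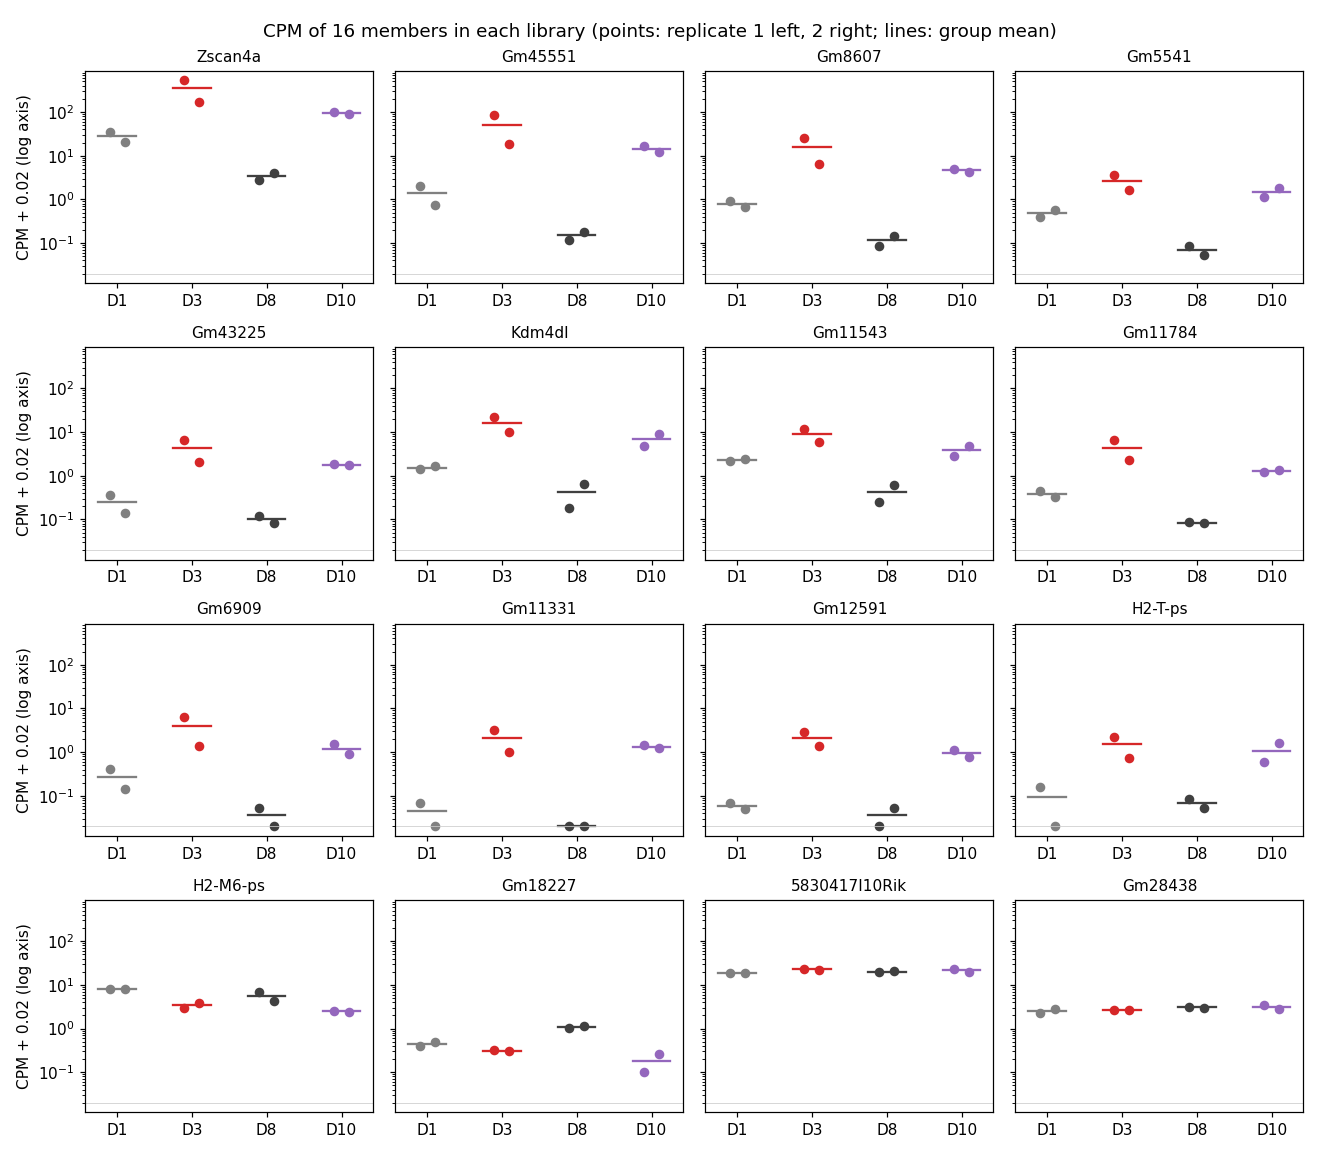
CPM of 16 members in each library on a log axis (0.02 added), with replicate 1 to the left and replicate 2 to the right of each day and lines at the group means. In the first 12 panels both D3 points lie above both D1 points and both D10 points above both D8 points, H2-M6-ps runs the other way, and 5830417I10Rik and Gm28438 stay level.

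Tmem92 encodes a transmembrane protein, and 4 copies of parts of it, Gm11543, AA623943, Gm11546 and Gm11545, stand within 250 kb of each other on chromosome 11. At D3 1 of them rose and at D10 3 did, against 7.92% and 9.27% of all genes tested. Gm11545, called higher at D10, had under 40 control reads, so the read minimum favoured its rise. Gm11543 (chr11:94828186-94828930) had 2.15 and 2.45 CPM (D1), 11.7 and 5.99 (D3), 0.229 and 0.579 (D8), and 2.84 and 4.80 (D10). The D8 libraries were the lowest and the D3 libraries the highest, and its changes were 1.93 ± 0.45 (adjusted p = 0.0257) and 3.24 ± 0.52 (adjusted p = 0.00562). Tmem92 itself rose by 2.18 and 3.53. AA623943, which is 97.17% identical to Gm11546, was at 1.75 ± 0.63 (adjusted p = 0.106) and 2.25 ± 0.68 (adjusted p = 0.0541).

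Speer genes encode glutamate-rich proteins of the testis. Both members related to them, Gm11784 and Gm6673, rose in both exposures, while their coding relatives Gm21083 and Speer4c had 8 reads and 1 read over the 8 libraries. The same limit of the read minimum holds for both. Gm11784 (chr4:3386846-3388691) had 9 and 10 reads (D1), 153 and 66 (D3), 2 and 2 (D8), and 29 and 55 (D10), without overlap. Its changes were 3.57 ± 0.55 and 4.18 ± 0.71.

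The zinc finger genes made up the largest family, with 13 members, most of them copies of KRAB-type genes, whose proteins bind DNA and recruit silencing cofactors. In each exposure 5 rose (Gm12591, Gm14415, Gm14411, Gm38699 and Gm28455), and Gm18227 fell at D10. For all genes tested, 7.92% were called higher at D3, and 9.27% higher and 7.65% lower at D10. Gm12591 and Gm14415 had under 40 control reads, so the read minimum favoured their rise. Gm12591 (chr11:121968211-121970685) had 1 and 1 reads (D1), 69 and 39 (D3), 0 and 1 (D8), and 27 and 32 (D10). The ratio was 54.7 at D3 (counting interval 14.8 to 457.1) and 54.5 at D10 (counting interval 9.41 to 2188), from 2 reads and 1 read in the control groups. Its nearest coding relative 5430403G16Rik, 80.81% identical, stood at 0.76 (adjusted p = 0.328) and 1.0 (adjusted p = 0.177).

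Gm14415, Gm14411 and Gm14421 lie together on chromosome 2 and did not move alike. Gm14411 changed by 2.20 ± 0.51 (adjusted p = 0.0248) and 2.66 ± 0.52 (adjusted p = 0.0118). Gm14421 stood at 0.08 ± 0.43 and 0.77 ± 0.43 and passed neither test (adjusted p = 0.925 and 0.251). Gm38699 rose by 1.78 ± 0.40 and 1.47 ± 0.39. Gm28455 rose from 3.30 and 3.42 CPM in the D1 libraries to 8.12 and 6.76 CPM at D3, and from 3.47 and 2.19 CPM to 6.61 and 5.94 CPM in the second exposure.

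Gm18227 (chr9:22167479-22170652) had 8 and 15 reads (D1), 7 and 8 (D3), 31 and 34 (D8), and 2 and 10 (D10). The D8 libraries were the highest and did not overlap those of any other day. It fell by 2.58 on the log2 scale at D10 (SE 0.50, adjusted p = 0.0112), and Zfp867, its relative at only 68.96% identity, rose by 0.84 (adjusted p = 0.0155). The zinc finger copies with most reads passed no test: Gm6445 was at 0.85 ± 0.49 and 1.31 ± 0.49, Gm20541 at 0.28 ± 0.40 and 0.52 ± 0.41, Gm49331 at -0.25 ± 0.47 and 0.03 ± 0.47, and Gm40881 at 0.37 ± 0.45 and 1.09 ± 0.46. In all 4, D8 replicate 2 was the lowest library.

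The 2 members of the MHC class I family, which encodes the cell-surface proteins that present peptides to T cells, moved in opposite directions. H2-M6-ps (chr17:36969195-36971396) had 8.18 and 8.17 CPM (D1), 2.95 and 3.76 (D3), 6.74 and 4.25 (D8), and 2.55 and 2.40 (D10). Both control groups were above the ML-792 group that followed, and it fell by 1.28 (SE 0.28, adjusted p = 0.0216) and by 1.15 (SE 0.29, adjusted p = 0.0278). Its neighbours Znrd1as and 2410137M14Rik also fell, by 0.71 and 1.89 at D3 and by 0.59 and 1.42 at D10.

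H2-T-ps (chr17:36109234-36111658) had 3 and 0 reads (D1), 53 and 21 (D3), 2 and 1 (D8), and 14 and 66 (D10). The ratios were 24.97 (counting interval 8.22 to 123.8) and 24.6 (counting interval 8.13 to 121.9). Its exons overlap those of Gm7030 on the same strand, and Gm7030 rose too, by 3.56 and 7.53, so reads of the overlap could belong to either. H2-T23, the nearest relative by sequence at 95.6% identity, had 19 reads in all.

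Several members of other families rose. Gm11331 (chr13:23266534-23266821), a fragment of 288 bases, had the largest fitted change in both exposures, with 1 and 0 reads (D1), 74 and 28 (D3), 0 and 0 (D8), and 35 and 51 (D10). The ratio at D3 was 103.2 (counting interval 18.1 to 4117), and D10 was at least 26.5-fold above D8. It is 98.26% identical to another pseudogene, Gm14219, and 91.37% to 1500011B03Rik, which did not pass the test (0.32 and 0.56).

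Gm6522 (chr3:106275200-106299760), related to the chitinase-like gene Chil3, had 1 and 3 reads (D1), 24 and 24 (D3), 2 and 0 (D8), and 29 and 55 (D10). It rose by 3.55 ± 0.66 at D3 (adjusted p = 0.0114), and Chil3 stood at 0.88 (adjusted p = 0.495) there and at 3.02 (adjusted p = 0.054) at D10. Cyp4a30-ps, a copy of a fatty acid hydroxylase gene, rose by 3.10 ± 0.50 and 2.43 ± 0.45. Gm9043 and Gm17204, which could not be placed in a family, rose by 3.41 ± 0.65 and 3.06 ± 0.75 at D3 and by 4.47 ± 0.81 and 3.31 ± 0.77 at D10. Gm6522, Cyp4a30-ps, Gm9043 and Gm17204 each had under 40 control reads, so the read minimum favoured their rise.

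Btnl7-ps (chr17:34532877-34547651), related to butyrophilin-like genes, had 3.30 and 4.50 CPM (D1), 1.77 and 2.37 (D3), 5.07 and 4.67 (D8), and 2.19 and 2.00 (D10). Both control groups lay above both ML-792 groups. It fell by 1.22 at D10 (SE 0.28, adjusted p = 0.0219), and at D3 its value was -0.92 ± 0.29 (adjusted p = 0.0714). Btnl6, 90.64% identical to it, had 1 read in all.

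Of the 19 members that copy a single gene, most did not pass the test. At D3 3 rose and at D10 2 did, against 7.92% and 9.27% of all genes tested. Gm6909, Gm15753 and Gm2808, the 3 that rose at D3, had under 40 control reads, so the read minimum favoured their rise. Gm6909 also rose at D10. The highest of the 19 members, 5830417I10Rik (chr3:88775216-88825587), is 99% identical to the transcription regulator gene Gon4l. Its level was even across libraries, from 18.2 to 23.3 CPM, with changes of 0.30 ± 0.15 and 0.11 ± 0.15. Mrip-ps, 99.79% identical to Mprip, stood at 0.09 ± 0.29 and 0.17 ± 0.28, and Vdac3-ps1, 99.53% identical to the mitochondrial channel gene Vdac3, at -0.68 ± 0.33 and -0.06 ± 0.33. The copies of Sp110 and Tulp4 were called at D3 alone. Gm15753 had 6 and 14 reads at D1 and 36 and 37 at D3 (1.91 ± 0.46, adjusted p = 0.0286), and Sp110, a nuclear body protein gene, rose by 2.43. Gm2808, 99.75% identical to Tulp4, had 4 and 1 reads at D1 and 12 and 25 at D3 (2.77 ± 0.77, adjusted p = 0.0473), and Tulp4 rose by 1.47.

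Nuclear copies of mitochondrial genes and their relatives differed widely in the reads assigned to them. Gm28438 had 48 and 91 reads (D1), 62 and 74 (D3), 94 and 92 (D8), and 85 and 119 (D10), and its changes were 0.01 ± 0.27 and 0.05 ± 0.26. Its near-identical relative mt-Nd3 had 0 reads in every library. Gm13341 had 19 to 106 reads in a library while mt-Co2 had 0 to 3. In contrast, Gm13340 had 117 to 228 reads where mt-Co1, 97.61% identical, had 133884 to 301084. Gm13341 was uneven within groups, with 104 and 39 reads at D1 and 106 and 30 at D10, and replicate 1 was the higher on both days. Its log2 fold changes of -1.56 ± 0.87 (adjusted p = 0.287) and 1.77 ± 0.89 (adjusted p = 0.212) had opposite signs and passed neither test. Without the filter on low counts the difference between its responses was called (edgeR adjusted p = 6.04e-05), while the reported fit and DESeq2 called 0 members. The unfiltered fit gave far smaller p-values elsewhere too. Zscan4a at D10 had an edgeR adjusted p of 2.2e-107 there and 0.00167 in the reported fit.

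The 3 histone copies, 5 Cdh11 copies and 8 chromosome 12 copies grouped with Asap2 and Hpcal1 were mostly not called. Of those 8, Asap2 or Hpcal1 is the closest coding relative of 5. Another, AC163633.1, shares its closest coding relative, 5730507C01Rik, with Gm49331 and Gm40881, which are grouped with the zinc finger genes. Gm12260 (chr11:58961812-58962222), 88.29% identical to the histone H3 gene Hist1h3g, had 15.1 and 10.2 CPM (D1), 37.0 and 23.8 (D3), 11.4 and 24.4 (D8), and 33.7 and 50.8 (D10). Within each exposure the ML-792 libraries lay above the controls, yet the changes of 1.27 ± 0.39 (adjusted p = 0.0664) and 1.24 ± 0.38 (adjusted p = 0.0583) missed the threshold. Hist1h3g went the other way (-0.70, adjusted p = 0.0718) and fell by 0.77 at D10 (adjusted p = 0.0463). Of the partial copies of the cadherin gene Cdh11 on chromosome 8, Gm40466 alone was called, at D10 (1.11 ± 0.26, adjusted p = 0.0214). The 8 copies grouped with Asap2 and Hpcal1, some of them fragments of 126 bases, ranged from -1.13 to 0.90 at D3 and from -0.42 to 0.80 at D10, and 0 of 8 passed edgeR's test in either exposure, with 0 at an unadjusted p under 0.05 and 0 called by DESeq2. Asap2 itself fell by 0.95 (adjusted p = 0.0199) and 0.80 (adjusted p = 0.0301).

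The coding relatives were then set beside the members. Of the 65 relatives 49 were tested, and 13 of them rose and 2 fell at D3, while 15 rose and 2 fell at D10. Over all genes tested, 7.92% were called higher and 5.1% lower at D3, and 9.27% higher and 7.65% lower at D10. Among the 27 members that rose at D3, the relative rose for 10, was tested without a call for 9, and was not tested for 8. For the 31 that rose at D10 the counts were 14, 9 and 8. Of these rising members, 19 at D3 and 20 at D10 had under 40 control reads, so the read minimum favoured their rise. Conversely, the relative rose while the member was not called higher for 7 members at D3 and 5 at D10. Several relatives are shared, such as Tmem92 by 4 members and Cdh11 by 5, so pairs are not independent. No rising member had a relative that fell.

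**Figure D4:**
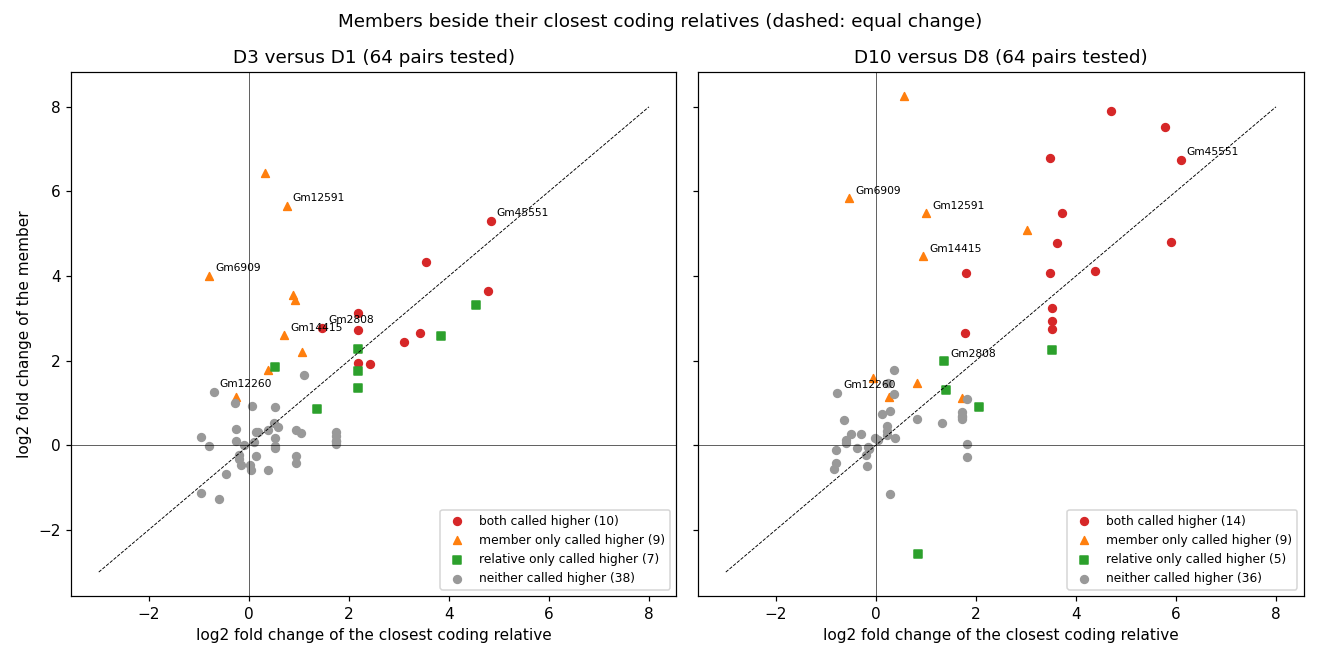
Members with a tested coding relative are placed by the relative's log2 fold change (horizontal axis) and their own (vertical axis), for D3 versus D1 on the left and D10 versus D8 on the right, with a dashed line of equal change. Gm45551 lies near the line, and Gm6909 and Gm12591 lie far above it.

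The calls were also counted by closeness to the relative. Among the 10 members at 99% identity or more 1 rose in each exposure, among the 27 from 95% to under 99% it was 12 and 11, among the 17 from 90% to under 95% it was 5 and 7, and among the 26 below 90% it was 9 and 12. Of the 25 single-exon members 6 rose at D3 and 7 at D10, and of the 56 with several exons 21 and 24 did. Over all genes tested, 7.92% were called higher at D3 and 9.27% at D10. Each of these classes holds members with under 40 control reads, whose rise the read minimum favoured. These are counts without a test of the difference, and they are no support for a link of identity or exon number with the response.

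Set beside other classes under the same minimum of 80 reads, 78 of 1091 processed pseudogenes rose at D3 and 92 at D10. Of 46 transcribed unprocessed pseudogenes, an annotation class for duplicated copies with transcript evidence, 15 rose at D3 and 18 at D10. Among 14148 tested protein-coding genes 1061 rose at D3 and 1246 at D10. The median log2 fold change of the processed class was -0.22 at D3 and 0.24 at D10, that of the transcribed unprocessed class 0.72 and 0.87, and that of the coding genes -0.03 in both. Unlike the members, these other classes kept their genes in the left-out regions. Their genes, too, can reach the minimum through the ML-792 libraries. The differences between classes were not tested.

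**Figure D5:**
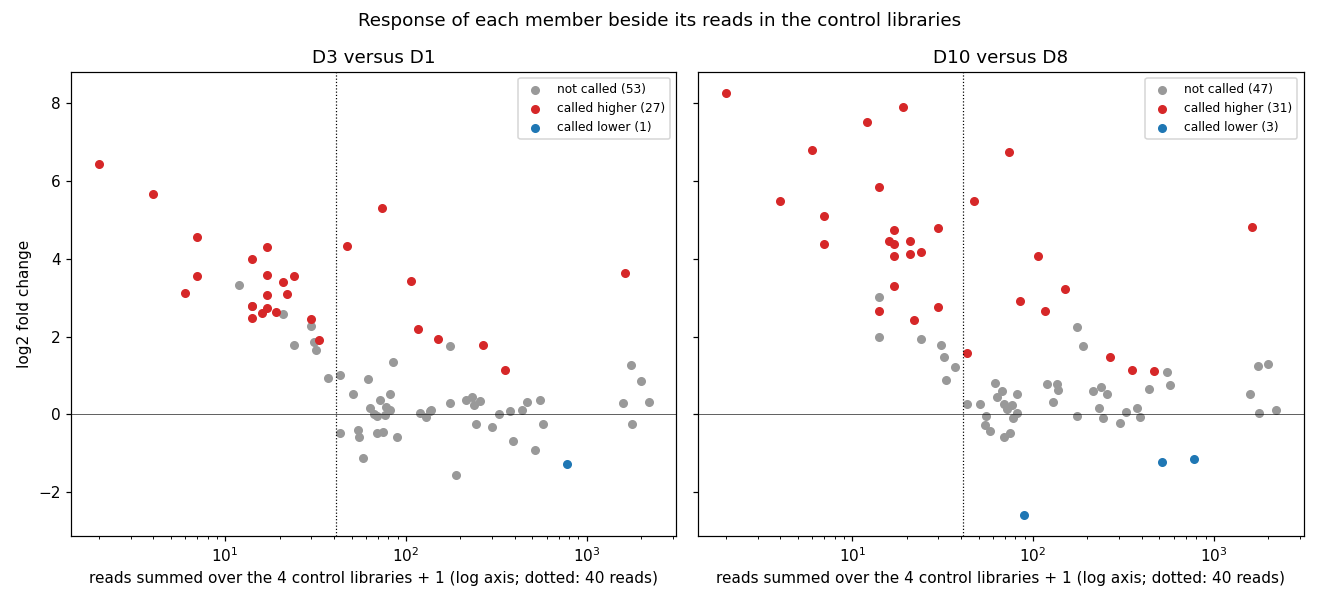
Each point is a member, placed by its reads summed over the 4 control libraries plus 1 (log axis) and its log2 fold change, for D3 versus D1 on the left and D10 versus D8 on the right. The 27 members left of the dotted line at 40 reads all lie above 0, and to its right most points lie near 0 with 8 called higher at D3 and 11 at D10.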

How the data were processed

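RNA of 8 R1 libraries was sequenced, 2 for each of 4 groups. The authors deposited raw counts, whole numbers of reads per Ensembl gene without normalization. Per the submitters' processing notes, bcl2fastq 2.17.1.14, STAR 2.5.0a, featureCounts and the build mm10 were used. Neither the version of featureCounts nor its settings for strand and multiply matching reads were found in those notes. The molecule is labelled polyA RNA, but per the labels' protocols the kit was for total RNA depleted of ribosomal RNA and kept strand.

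Biotypes, positions and transcript sequences came from GENCODE M21 (GRCm38). Relatives were the best hits of blastn 2.17.0 (at least 100 aligned bases, e-value at most 1e-10). Counts were fitted with edgeR 4.0.16 in R 4.3.3: 1 quasi-likelihood fit of 4 groups, TMM scaling, filterByExpr, 4 residual degrees of freedom, 2-sided tests, Benjamini-Hochberg adjustment over 19173 genes and a threshold of 0.05. The biological coefficient of variation was 19.6%. Values after ± are SEs of log2 fold changes, the fold change divided by the square root of the F statistic. Where a control group had 0 reads, a floor of 3 reads over the group gave the bound; with 1 to 3 reads, a ratio with its exact 95% counting interval is given. Floors and intervals cover counting error only, since no molecular identifiers are named and PCR copies then count as reads. The procedure was tested on simulated data.

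The members and lists were chosen with earlier results of these data known, and families were grouped after the values were seen. Named genes were, per comparison, up to 10 largest rises and falls among called members, the 10 members with highest mean CPM, the 3 nearest the read minimum on each side and the relatives of these; other members named per family were chosen after their values were seen. One member that the rule names is not reported here. The alternatives were RLE scaling, DESeq2 1.42.0, no filter, 1 CPM in 2 libraries, the replicate block, GC content and length offsets, each library left out, and read minimums of 40 and 160.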

Additional observations from a re-analysis of the deposited data

How the results depend on the processing

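The count of members called was 28 at D3 and 34 at D10 as reported. At D3 it ranged from 0 to 32 when single libraries were left out and from 23 to 40 under the other settings, and at D10 from 23 to 31 and from 29 to 44. For D8 versus D1 the 0 called became 6 with DESeq2, 15 without the filter on low counts, 3 with the replicate block (Gm11543, Gm11546 and Zscan4a, the last at an adjusted p of 0.00652), 3 with the GC content and length correction and the replicate block, and 0 to 1 when single libraries were left out. For the difference between the responses the 0 called became 2 without the filter (Gm13341 and Zscan4a). No result changed direction in any of these settings. The causes were not tested, except that a group with 1 library left has fewer degrees of freedom and its lone library is assumed to vary like the others. Replicate numbers are shared by the groups, but no label ties them to a culture or day. Deviations of same-numbered libraries correlated across genes at 0.101 to 0.498, and the replicate block gave 39 calls at D3 and 40 at D10, including all called as reported. Members with few control reads set the depth limit: with 0 to 3 reads in a group the fitted change depends on the prior count.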
